A study of Mus musculus with 43 samples.

Results

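Glutathione transferases were followed as 10 genes of this family, each with a row of its own in the table of group values: Gstp1, Gstp2, Gsta2, Gsta3, Gsta4, Gstm1, Gstm2, Gstm3, Gstt2 and Gstk1. They were chosen by name among 42349 entries, and the names matched 12 rows, of which 2, second copies of Gstp1 and Gstp2 on a patch sequence of the assembly, were at 0 in every group and were set aside. RNA from female mice at 15 months of age was sequenced in 4 tissues, the brain, the liver, skeletal muscle and white adipose tissue (WAT) from the inguinal depot. The 4 groups in each tissue were wild-type Irs1+/+ mice fed ad libitum (WTAL), wild-type mice under dietary restriction (WTDR), Irs1-/- mice fed ad libitum (KOAL) and Irs1-/- mice under dietary restriction (KODR). Restriction lasted 12 months at 30% below the intake of ad libitum controls and was given as a daily afternoon meal, so that the groups also differed in when they ate. Irs1-/- is a knockout of insulin receptor substrate 1 in the whole body, and all groups shared sex, age and chow. The comparisons ask how the genotype, the diet and both together changed these genes in each tissue. The labels list 43 libraries in 16 groups, 2 for each WTAL group and for WTDR WAT and 3 for every other group.

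Each value is the FPKM (fragments per kilobase of transcript, scaled to the mapped reads of the library) that the authors' software estimated for a gene over all libraries of a group, with its 95% interval. No value per library was used here, so the spread between mice is known only through these intervals, and the read depth behind a value is unknown. Over the groups the median SD of an entry, taken from the interval, was between 27.2% and 62.3% of its FPKM, and it was widest in WTDR WAT. Differences are given as log2 ratios of FPKM with a standard error (SE) from the intervals, and a difference was called at a false discovery rate of 10% over all entries tested in that tissue and comparison by a Wald test (two-sided, p adjusted after Benjamini and Hochberg). Irs1 went against the labels, since 1 of 8 genotype comparisons had a lower value in the knockout (FPKM of 1.62 to 6.56 in groups labelled WT and of 2.58 to 6.31 in groups labelled KO). A value over the whole gene does not check the deleted part, and directions below are those of the labelled groups. Markers of hepatocytes, skeletal muscle, neurons and glia, and adipocytes each had their highest summed FPKM in the tissue so labelled in all 4 groups. In WTDR skeletal muscle, however, 10 hepatocyte genes such as Alb and Apoa1 had a median of 1.77% of their liver FPKM against 0.0343% to 0.0889% in the other muscle groups. In bulk tissue, fewer cells of a type and less RNA per cell cannot be told apart.

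Glutathione transferases join the tripeptide glutathione to electrophilic compounds, among them xenobiotics and products of lipid peroxidation, and the conjugates are then exported from the cell. The cytosolic enzymes are dimers and fall into classes: Gstp1 and Gstp2 are pi class, Gsta2, Gsta3 and Gsta4 alpha class, Gstm1, Gstm2 and Gstm3 mu class and Gstt2 theta class. Gstk1 is kappa class, a structurally distinct class found in mitochondria and peroxisomes. In rodent liver these enzymes are abundant, and many of their genes are induced through the transcription factor Nrf2, which binds antioxidant response elements. Gsta4 is the enzyme known for conjugating hydroxynonenal, an aldehyde from oxidised lipids, and mouse Gsta3 is known for detoxifying the aflatoxin epoxide.

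Genes of the pi class and of the mu class lie side by side, and some members are so alike that short reads are hard to assign. On GRCm38, the build of the table, Gstp1 (chr19:4035407-4037985) and Gstp2 (chr19:4040285-4046023) were neighbours on the minus strand, and Gstm1, Gstm2 and Gstm3 lay within 54278 bases at chr3:107963696-108017973, also on the minus strand. Gsta2 (chr9:78331018-78355788, minus) and Gsta4 (chr9:78182774-78209349, plus) shared a chromosome, whereas Gsta3 (chr1:21240589-21265661, plus), Gstt2 (chr10:75831114-75837424, minus) and Gstk1 (chr6:42245935-42250447, plus) stood alone. The coding sequences of Gstp1 and Gstp2 differed at 12 of 630 bases (98.1% identity), with an identical run of 300 bases. The stretch below is the part of their coding sequence within one exon that tells them apart best, coding bases 256 to 330 in exon 5, and is shown because every statement that separates these genes rests on such bases. The copy of Gstp1 lies at chr19:4036694-4036768 and that of Gstp2 at chr19:4040988-4041062 (minus strand, read from the transcripts of the GRCm38 annotation), and capitals mark the 6 bases that differ.
Gstp1: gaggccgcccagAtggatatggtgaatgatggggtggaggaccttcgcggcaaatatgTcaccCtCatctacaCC
Gstp2: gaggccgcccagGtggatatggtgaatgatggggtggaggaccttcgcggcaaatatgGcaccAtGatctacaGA
The mu class was further apart, with 89.4% identity between Gstm1 and Gstm3, 85.9% between Gstm1 and Gstm2 and 84.7% between Gstm2 and Gstm3 over 654 coding bases. Their most divergent coding stretch of 60 bases within one exon was the last one, bases 595 to 654 in exon 8, at chr3:108012692-108012751 (Gstm1), chr3:107982052-107982111 (Gstm2) and chr3:107964210-107964269 (Gstm3). It is shown because the mu genes differed at the most positions there among such coding stretches, and untranslated parts were not searched. Capitals mark the 24 positions at which the genes were not all alike.
Gstm1: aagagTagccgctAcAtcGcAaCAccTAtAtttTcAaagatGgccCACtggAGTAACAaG
Gstm2: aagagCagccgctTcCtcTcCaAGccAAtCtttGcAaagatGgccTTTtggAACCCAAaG
Gstm3: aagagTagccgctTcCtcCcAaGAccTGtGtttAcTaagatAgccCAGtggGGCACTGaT
Windows of 54 bases, the shortest read that the authors aligned, were counted along each transcript. In Gstp1, 61.6% of the windows occurred in another gene, and in Gstp2 71.9%, shared with each other and with the pseudogene Gstp-ps. In Gsta2, 61.0% were shared, mostly with Gsta1, Gm10639 and Gm3776. The share was 27.5% in Gstm3, 21.4% in Gstm1 and 8.21% in Gstm2, and no window of Gsta3, Gsta4, Gstt2 or Gstk1 occurred elsewhere. The split of reads between Gstp1 and Gstp2, and the level of Gsta2, are therefore uncertain. The ratio of Gstp1 to Gstp2 FPKM stayed between 2.05 and 3.87 over the 16 groups.

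In liver all 10 genes were expressed, and all 10 had a higher FPKM in WTDR than in WTAL. Gstm1 was the most abundant, with 695 FPKM in WTAL, 1226 in WTDR, 956 in KOAL and 1163 in KODR. Gsta3 came next, with 256 FPKM in WTAL, 540 in WTDR, 347 in KOAL and 614 in KODR. The lowest were Gsta2, at 11.4 to 24.8 FPKM, and Gstm3, at 11.8 to 30.7 FPKM. WTAL was the lowest group for 9 of the 10 genes, the exception being Gstm3, which was 12.0 FPKM in WTAL and 11.8 in KOAL. Summed over the 10 genes, FPKM was 1373 in WTAL, 2679 in WTDR, 1959 in KOAL and 2584 in KODR.

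**Figure D1:**
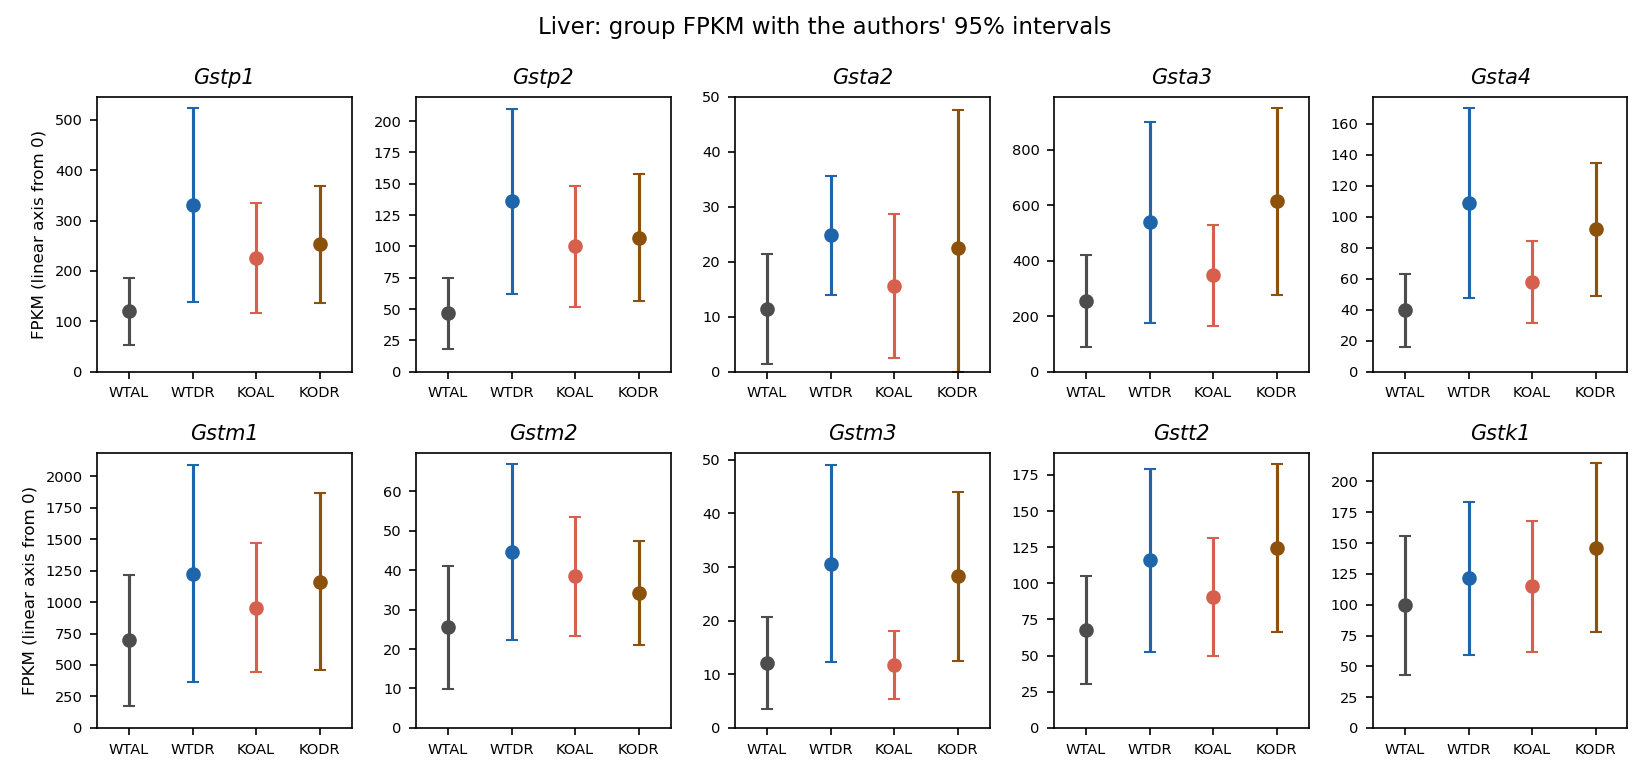
FPKM of the 10 genes in liver (vertical axes, linear from 0, one scale per gene) in WTAL, WTDR, KOAL and KODR; points are group values and bars the authors' 95% intervals. The WTAL point is the lowest in 9 of the 10 panels, while the intervals of WTAL and WTDR overlap in every panel, as for Gstp1 (53.5 to 186 and 139 to 523 FPKM).

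Among the liver contrasts, the diet contrast in the wild type had the largest difference in value. Gstp2 was 46.5 FPKM in WTAL and 136 in WTDR, a log2 difference of 1.55 (SE 0.59), and Gstp1 was 120 and 331 FPKM, a log2 difference of 1.46 (SE 0.58). Gsta4 was 39.5 FPKM in WTAL and 109 in WTDR, a log2 difference of 1.46 (SE 0.59). Gstm3 was 12.0 and 30.7 FPKM, a log2 difference of 1.35 (SE 0.67). In each of these the group value more than doubled, yet the authors' intervals of the groups overlapped. Gsta2 (11.4 and 24.8 FPKM) and Gsta3 (256 and 540 FPKM) had log2 differences of 1.11 (SE 0.70) and 1.08 (SE 0.67). The smaller differences were those of Gstm1 at 0.82 (SE 0.74), Gstm2 at 0.81 (SE 0.57), Gstt2 at 0.78 (SE 0.56) and Gstk1 at 0.29 (SE 0.55). None of the 10 genes was called, where 0.236% of the 13539 entries tested were. The paper's own test at the same rate counted more genes in this contrast than the 32 entries called here. It lists glutathione binding among the leading terms of its up-regulated genes there. The lack of a call thus holds for the Wald test used here. At an unadjusted p under 0.05 the count was 4 of 10 (Gstp1, Gstp2, Gsta4 and Gstm3), against 2.91% of all entries. With the SD divided by the square root of the number of libraries, called the smaller SE below, these 4 genes passed and the other 6 did not, where 2.86% of all entries passed. The adjusted p values of the 4 then ran from 0.0062 for Gstp2 to 0.086 for Gstm3 by the Wald test. As a description, 10 of 10 members were higher in WTDR, against 51.9% of all entries, and 6 were at least doubled, against 9.48%, and their median log2 difference was 1.10 against 0.03 over all entries.

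Hepatocyte genes moved in the same direction. All 10 hepatocyte markers, secreted or metabolic proteins such as Alb, Ttr and Cyp2e1, had their lowest FPKM in WTAL liver. Their summed FPKM was 73601 in WTAL, 155220 in WTDR, 142310 in KOAL and 168820 in KODR, and none was at 0. Between WTAL and WTDR this sum differed by 1.08 on the log2 scale, and the median marker by 0.90. Relative to that sum, the 10 transferases together were 1.87% in WTAL, 1.73% in WTDR, 1.38% in KOAL and 1.53% in KODR. The transferases with a larger difference than the median marker were Gstp1, Gstp2, Gsta2, Gsta3, Gsta4 and Gstm3. The part of the hepatocyte genes in the transferase difference was not tested. Of 8 genes with a zone in the liver lobule, 4 were higher in WTDR than in WTAL and 4 lower, with sums of 2428 and 2166 FPKM. The 3 macrophage markers with an entry, Cd68, Csf1r and Lyz2, were all lower in WTDR liver, with a sum of 62.5 FPKM against 114 in WTAL, and their part was not tested either.

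The genotype differences in liver were smaller in value under both diets. KOAL was above WTAL for 9 of 10 genes, against 61.4% of all entries, with a median log2 difference of 0.45 against 0.16 over all entries. All 10 hepatocyte markers were also higher in KOAL, with a median log2 difference of 0.91, and their part was not tested. Gstp2 was 46.5 FPKM in WTAL and 100 in KOAL, a log2 difference of 1.11 (SE 0.56), and Gstp1 was 120 and 226 FPKM, a difference of 0.91 (SE 0.53). The remaining differences lay between -0.03 for Gstm3 and 0.59 for Gstm2. Gstp2 was the 1 gene at least doubled, against 9.3% of all entries, and the 1 gene with an unadjusted p under 0.05, against 2.03%. None was called, where 0.316% of the entries were, nor with the smaller SE, where 1.54% passed. This contrast and that of WTDR with WTAL share the 2 WTAL libraries, so that a low WTAL value raises both. Red blood cell RNA moved with the genotype in liver, all 5 markers being higher in KOAL than in WTAL, with sums of 13569 and 2681 FPKM, and in KODR than in WTDR, with sums of 12047 and 3469 FPKM. Its part in the genotype values was not tested. Under restriction, KODR was above WTDR for 3 genes (Gsta3, Gstt2 and Gstk1), against 57.4% of all entries, and below it for 7. These log2 differences ran from -0.39 for Gstp1 to 0.27 for Gstk1, and none was called, where 0.288% of entries were, or passed with the smaller SE, where 2.64% did. None had an unadjusted p under 0.05, against 1.78%, or was at least doubled, against 5.88% of all entries.

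Within the knockout, the diet contrast was led by Gstm3. It was 11.8 FPKM in KOAL and 28.2 in KODR, a log2 difference of 1.26 (SE 0.56), close to its 1.35 in the wild type. Gsta3 was 347 and 614 FPKM, a log2 difference of 0.82 (SE 0.55), and Gsta4 57.8 and 92.0 FPKM, a difference of 0.67 (SE 0.47). The pi genes differed less, by 0.16 (SE 0.48) for Gstp1 and 0.09 (SE 0.49) for Gstp2. KODR was above KOAL for 9 genes, Gstm2 being the exception at -0.16 (SE 0.40), against 47.4% of all entries. None was called, where 0.611% of entries were, and Gstm3 alone passed with the smaller SE, where 4.8% of entries did. It was also the 1 gene at least doubled, against 5.15% of entries, and the 1 gene with an unadjusted p under 0.05, against 2.87%. The same 10 hepatocyte markers had a median log2 difference of 0.16 in this contrast, against 0.40 for the transferases, and 8 of them were higher in KODR.

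**Figure D2:**
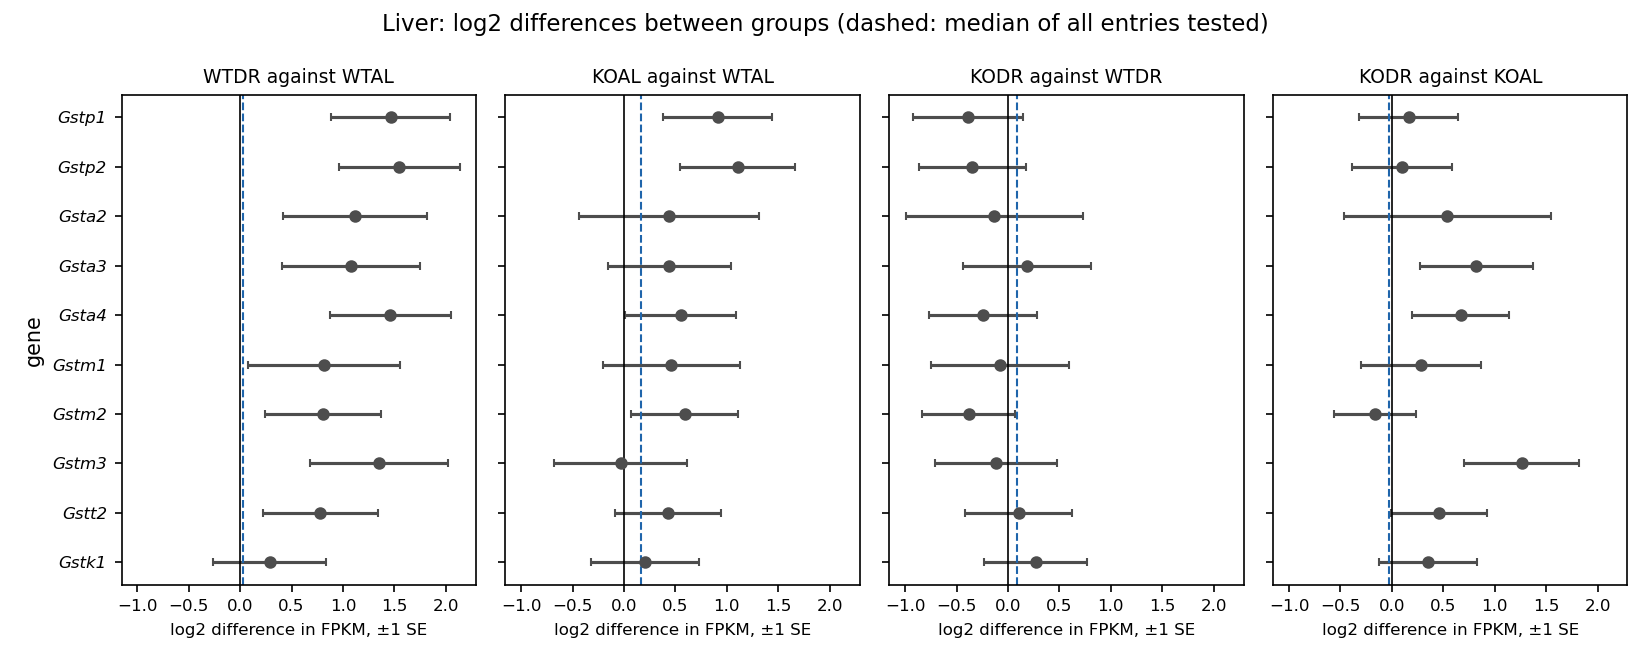
Log2 differences in liver FPKM (horizontal axes) for the 10 genes in 4 comparisons; points are differences, bars 1 SE either side, the solid line 0 and the dashed line the median of all entries tested. All 10 points lie above 0 for WTDR against WTAL, from 0.29 for Gstk1 to 1.55 for Gstp2, and those for KODR against WTDR lie within 0.39 of 0.

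The difference of the diet contrast between genotypes was tested as an interaction. It was below 0 for 9 of 10 genes, meaning a lower value of the diet difference in the knockout, where 44.4% of all entries were above 0, with a median of -0.56 on the log2 scale against -0.09 over all entries. The pi genes were furthest from 0, at -1.45 (SE 0.76) for Gstp2 and -1.30 (SE 0.75) for Gstp1, followed by Gstm2 at -0.97 (SE 0.69) and Gsta4 at -0.79 (SE 0.75). Gstm3 and Gstk1 were near 0, at -0.09 (SE 0.88) and 0.06 (SE 0.73). No interaction of the 10 was called, where 0.086% of entries were, or passed with the smaller SE, where 0.803% did, and none had an unadjusted p under 0.05, against 1.05%. A difference between genotypes in the diet contrast was thus not shown, and the 95% interval of the Gstp1 interaction ran from -2.78 to 0.17. The 10 hepatocyte markers had a median diet difference of 0.90 in the wild type and 0.16 in the knockout. Their part in the interaction values was not tested, and the 2 WTAL libraries enter every interaction.

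Pathway genes around the transferases were read from 6 lists, and in liver none of their genes was called in any of the 4 comparisons. With the smaller SE, 8 differences passed over the 4 liver comparisons, and they are named below. Genes tested numbered 6 to 13 per list and comparison, and 1.54% to 4.8% of all entries passed with that SE. Over all lists the 8 passes lay near those shares, and they are no result about the lists. Among 17 other transferases in the table, Mgst1, a membrane enzyme, was the most abundant, at 3428 FPKM in WTAL, 3598 in WTDR, 3081 in KOAL and 3218 in KODR. Its log2 difference between WTDR and WTAL was 0.07 (SE 0.83), and that of the theta gene Gstt1, at 451 and 385 FPKM, was -0.23 (SE 0.71). Over the 13 tested the median was 0.07, with 8 higher and 5 lower. Gstm6, a mu gene beside the members that shares 5.72% of the windows of Gstm3, had the largest positive difference, from 18.5 to 47.7 FPKM (log2 1.37, SE 0.63), and passed with the smaller SE. Gstcd had the lowest, -0.26. In the other liver comparisons the extremes of this list were Gstz1 (0.48) and Gstm5 (-0.44) for KOAL against WTAL, Gstz1 (0.66) and Gsta1 (-1.16) for KODR against WTDR, and Ltc4s (1.07) and Gstcd (-0.44) for KODR against KOAL, where Mgst3, another membrane enzyme named after its values were seen, passed with the smaller SE.

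Genes that make and recycle glutathione had a median log2 difference of 0.46 between WTDR and WTAL, with 8 of 10 tested higher. Gclc, the catalytic subunit of the limiting step of glutathione synthesis, was 78.2 FPKM in WTAL, 130 in WTDR, 113 in KOAL and 68.4 in KODR. The extremes of this list were Chac1, which degrades glutathione, at 0.89 and Ggct at -0.19 for WTDR against WTAL, Chac1 (1.94) and Gsr (-0.20) for KOAL against WTAL, Ggt5 (1.05) and Gclc (-0.93) for KODR against WTDR, and Chac2 (0.56) and Chac1 (-1.09) for KODR against KOAL. Of the glutathione peroxidases and redoxins, 4 of 11 tested were higher in WTDR than in WTAL, with a median of -0.25. Their extremes were Gpx8 (2.16) and Txnrd1 (-0.74) there, Gpx8 (1.72) and Gpx7 (-0.55) for KOAL against WTAL, Glrx5 (0.90) and Gpx8 (-0.90) for KODR against WTDR, and Txn1 (0.57) and Gpx3 (-0.62) for KODR against KOAL. Gpx8 was below 2 FPKM in all 4 liver groups.

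The Nrf2 list, which holds the factor, its inhibitor Keap1 and known targets, had 6 of 13 genes higher in WTDR than in WTAL and a median log2 difference of -0.02. Nfe2l2, the gene of Nrf2, was 50.3 FPKM in WTAL, 49.5 in WTDR, 47.2 in KOAL and 42.7 in KODR. Nqo1, a target used to read Nrf2 activity, was 9.38 FPKM in WTAL, 8.65 in WTDR, 10.8 in KOAL and 12.2 in KODR. The carboxylesterase gene Ces2a went from 55.6 to 125 FPKM between WTAL and WTDR (log2 1.17, SE 0.60) and passed with the smaller SE, while Hmox1 had the lowest difference at -0.66. For KOAL against WTAL the extremes were Ces2a (1.22), which passed with the smaller SE, and Mafg (-0.60), for KODR against WTDR Maff (0.86) and Ugdh (-0.77), and for KODR against KOAL Maff (1.73) and Hmox1 (-0.87), both of which passed with the smaller SE. Among the efflux and mercapturate genes, the extremes for WTDR against WTAL were Nat8 (2.12) and Abcc1 (-4.78). They were Acy3 (0.41) and Abcc1 (-3.08) for KOAL against WTAL, Acy3 (0.79) and Nat8 (-1.12) for KODR against WTDR, and Abcc2 (0.53) and Anpep (-0.05) for KODR against KOAL. Abcc1 was 6.37 FPKM in WTAL and below 1 in the other liver groups, and both of its differences passed with the smaller SE. Of 6 xenobiotic receptor genes, the extremes were Nr1i2 (0.40) and Rxra (-0.42) for WTDR against WTAL, Hnf4a (0.87) and Ahr (-0.11) for KOAL against WTAL, and Rxra (0.52) and Ahr (-0.12) for KODR against WTDR.

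The start sites were searched for the core letters of the antioxidant response element, since Nrf2 is the known regulator of the family. RefSeq promoters (250 bases before to 50 after the start, GRCm38.p6) were held for 8 of the 10 genes, in 9 promoters. A pair of spellings was searched on both strands, TGACNNNGC, which 12.4% of all 32851 promoters held, and TGAGNNNGC, which 17.6% held. The first was found in Gsta3, from base -121 to -113, and the second in Gstp1, from -74 to -66 and again on the opposite strand from -9 to -1, and in Gstp2, from -89 to -81. The Gstp1 and Gstp2 match at the first of these places read TGAGTCAGC in both, letters that 0.414% of all promoters held. The other 6 promoters held neither spelling. The pi promoters were identical at 86.2% of 282 aligned bases and are shown because Gstp1 and Gstp2 had the largest diet differences in wild-type liver, with that of Gsta3 beside them. They lie at chr19:4037863-4038162 (Gstp1, minus), chr19:4042172-4042471 (Gstp2, minus) and chr1:21240335-21240634 (Gsta3, plus), and capitals mark the matches.
Gstp1: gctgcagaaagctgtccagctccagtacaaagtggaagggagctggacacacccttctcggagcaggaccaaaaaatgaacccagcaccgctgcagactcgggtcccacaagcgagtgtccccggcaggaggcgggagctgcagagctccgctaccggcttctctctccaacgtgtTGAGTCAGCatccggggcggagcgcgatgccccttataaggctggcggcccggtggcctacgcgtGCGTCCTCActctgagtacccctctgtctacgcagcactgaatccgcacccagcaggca
Gstp2: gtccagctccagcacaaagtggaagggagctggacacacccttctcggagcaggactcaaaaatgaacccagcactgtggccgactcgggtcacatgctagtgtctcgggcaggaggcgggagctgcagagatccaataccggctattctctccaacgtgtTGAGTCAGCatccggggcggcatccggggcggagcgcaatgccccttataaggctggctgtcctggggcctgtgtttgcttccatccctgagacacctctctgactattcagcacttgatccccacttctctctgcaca
Gsta3: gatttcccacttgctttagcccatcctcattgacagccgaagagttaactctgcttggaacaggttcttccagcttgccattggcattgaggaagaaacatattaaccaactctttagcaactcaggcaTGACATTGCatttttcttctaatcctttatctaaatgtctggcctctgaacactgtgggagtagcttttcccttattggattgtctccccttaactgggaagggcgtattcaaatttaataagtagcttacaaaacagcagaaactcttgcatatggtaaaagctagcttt
A match describes the letters of these windows, and binding was not measured.

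Across tissues, liver held the highest summed level and each gene had its own distribution. Gstm1 was the most abundant of the 10 in 13 of the 16 groups and Gstp1 in the other 3. Pairs of tissues were compared within each genotype and diet, and 135 of 216 tests on these genes were called, or 62.5%, where between 13.2% and 44.1% of all entries were called per pair. Of 116 tests of liver with another tissue, 84 were called higher in liver and 2 lower, both of them Gstm2 against WAT. With a t distribution in place of the normal, 41 of the 216 tests, or 19.0%, were called, where between 0% and 20.7% of all entries were called per pair. Those 41 were all among liver, muscle and brain in WTDR, KOAL and KODR, so that no order in WTAL, and none that involves WAT, was called by it for a member. In WTAL the t distribution called 0% of all entries in every pair, so the lack of calls there is no result about the members. In pairs with WAT it called at most 5.79% of entries in KOAL and at most 0.119% in the other groups. The test called too many unchanged entries in simulations with errors symmetric on the linear scale, as the intervals here are, and an SD that followed the drawn value, and the 135 may be too high a count.

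Gsta2 and Gstm3 were nearly confined to liver. Outside it, Gsta2 did not exceed 0.793 FPKM, its value in WTDR muscle, and Gstm3 did not exceed 1.64 FPKM, its value in WTAL WAT. Gsta3 had the same order in value in all 4 groups, liver above WAT, WAT above muscle and muscle above brain. Its liver values of 256 to 614 FPKM and WAT values of 59.9 to 141 FPKM differed in all 4 groups, as did WAT and muscle (2.43 to 7.01 FPKM), whereas muscle and brain (0.0823 to 0.599 FPKM) differed in WTDR and KODR only. In WAT, Gsta3 was 17.3% to 30.4% of its liver FPKM, where the hepatocyte markers had medians of 0.0715% to 1.16%. In WTDR muscle it was 1.30% of its liver value, below the 1.77% of the median hepatocyte marker there, and the part of liver RNA in that value was not tested. Muscle also held adipocyte markers, with sums of 1777 FPKM in WTAL, 592 in WTDR, 1959 in KOAL and 2621 in KODR. Their sums in WAT were 15738 to 26850 FPKM. The part of fat RNA in the muscle values of genes also found in WAT was not tested. Gstt2 had the same order of tissues, at 67.5 to 124 FPKM in liver, 24.3 to 41.6 in WAT, 4.30 to 9.61 in muscle and 1.44 to 2.37 in brain. In that order, 9 of its 12 neighbouring pairs were called, where 13.2% to 44.1% of all entries were called per pair of tissues. The order was taken from these same values, and with the t distribution none of these neighbouring pairs was called. Gstk1 was 99.5 to 146 FPKM in liver, above every other tissue in value and called so except against WAT in WTDR. Its levels in muscle (21.0 to 28.5 FPKM) and WAT (15.7 to 36.9 FPKM) did not differ beyond their error, while brain was lowest, at 2.64 to 6.0 FPKM. With the t distribution, liver stayed called above muscle and brain for Gsta3 and for Gstt2 in 3 of 4 groups, and for Gstk1 above brain in 3 groups and above muscle in 2.

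The pi genes were spread more evenly over the tissues. Gstp1 was 120 to 331 FPKM in liver, 117 to 173 in muscle, 86.5 to 140 in WAT and 57.2 to 80.1 in brain, and 2 of its 12 neighbouring pairs were called. In WTAL it was higher in muscle (173 FPKM) than in liver (120 FPKM), a difference that was not called. Gstp2 lay between 16.6 FPKM in brain and 136 FPKM in liver, with 0 of 12 neighbouring pairs called, although liver and brain differed in 3 of 4 groups. Gstm2 was the only member with its highest value in WAT in every group, at 63.5 to 102 FPKM, against 25.5 to 44.7 in liver, 34.6 to 45.6 in muscle and 0.802 to 1.67 in brain. WAT was called above brain for Gstm2 in 4 of 4 groups, above liver in 2 and above muscle in 0, and in none with the t distribution. No difference between liver and muscle was called for Gstm2 in any group. Gsta4 was the alpha gene that brain expressed, at 21.1 to 30.1 FPKM, against 10.7 to 17.7 FPKM in muscle, 13.5 to 43.2 in WAT and 39.5 to 109 in liver. Of its 12 neighbouring pairs, 1 was called, liver above WAT in KODR. Beside these counts of neighbouring pairs, 13.2% to 44.1% of all entries were called per pair of tissues. Neighbours were ordered by the same values, and the neighbour calls of Gstp1 and Gsta4 were lost with the t distribution.

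**Figure D3:**
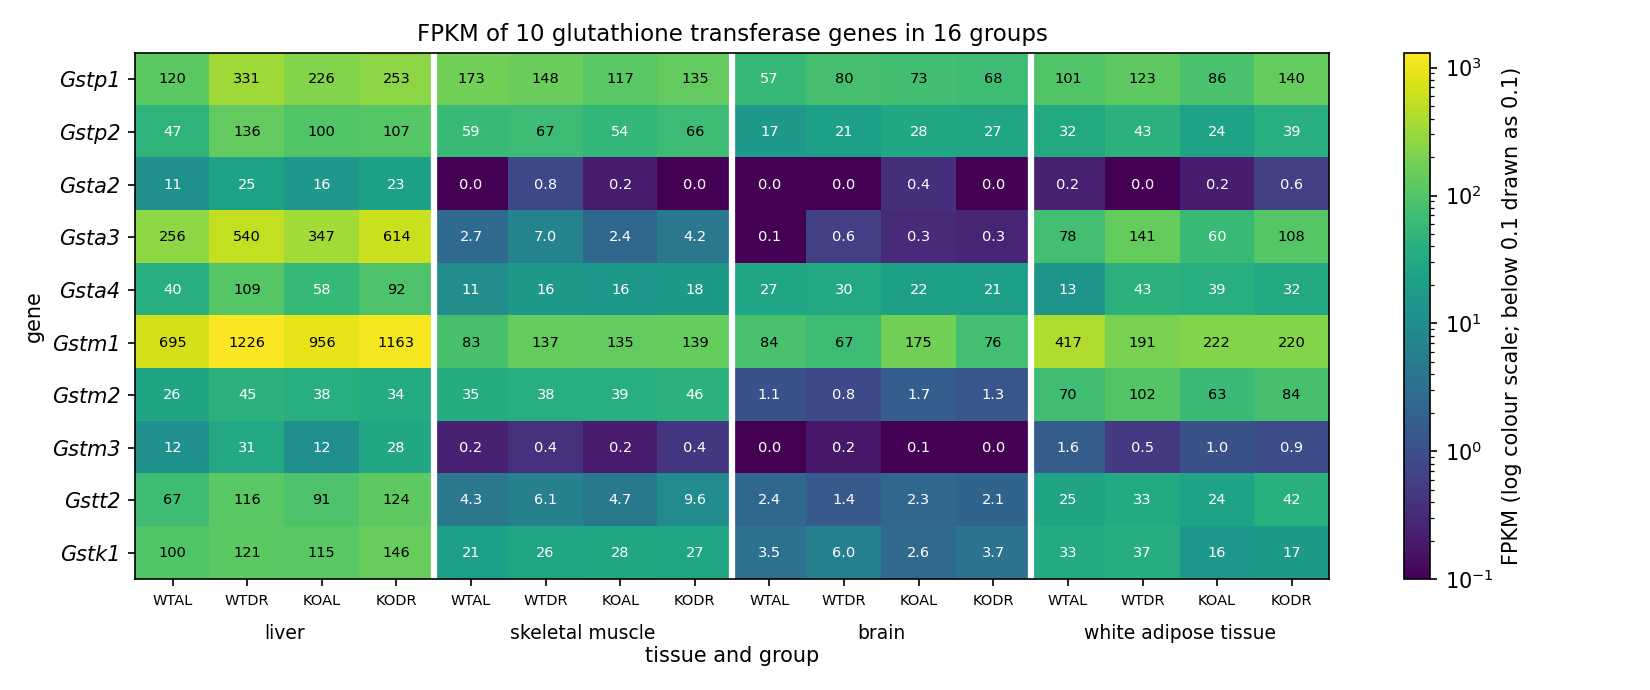
FPKM of the 10 genes (rows) in the 16 groups (columns, by tissue), with the value printed in each cell and colour on a log scale. Gsta2 and Gstm3 are high in liver alone, Gsta3 in liver and WAT, and Gstm1, Gstp1, Gstp2 and Gsta4 reach at least 10 FPKM in all 16 groups.

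In WAT, Gsta4 was the one member called in a diet or genotype contrast. It was 13.5 FPKM in WTAL, 43.2 in WTDR, 38.6 in KOAL and 31.7 in KODR, and WTAL stood below the other groups. KOAL was 2.87-fold above WTAL, a log2 difference of 1.52 (SE 0.46), and the authors' intervals of 7.24 to 19.7 and 21.9 to 55.3 FPKM did not overlap (Wald test, adjusted p = 0.0731). This was 1 call in 9 genes tested, where 1.29% of all entries were called and 1.04% were called higher. Its unadjusted p was under 0.05, as for 4.48% of entries. Over the alternatives its adjusted p ran from 2.53e-05 to 1.00, and the call was lost at a false discovery rate of 5%, with no filter on low FPKM and with a t distribution. As with the calls between tissues, the test may call too many entries. Gsta4 in WTDR was 3.21-fold above WTAL, a log2 difference of 1.68 (SE 0.70) that was not called, where 0.57% of entries were. It passed with the smaller SE, where 2.75% did, and at an unadjusted p under 0.05, as did 3.56% of entries. Its interaction of -1.97 (SE 0.88) was not called, where 0.121% of entries were. It too passed with the smaller SE, where 1.2% did, and at an unadjusted p under 0.05, as did 1.56% of entries. The WTAL group of 2 libraries enters each of these differences.

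The other WAT members went the other way or differed little in the genotype contrast. KOAL was below WTAL for 8 of the 9 tested, where 45.2% of all entries were above it, and the median was -0.38 on the log2 scale against -0.06 over all entries. Gstk1 was 32.8 FPKM in WTAL, 36.9 in WTDR, 15.7 in KOAL and 17.2 in KODR. Its log2 difference of KOAL against WTAL was -1.07 (SE 0.52), which was not called but passed with the smaller SE, where 5.94% of entries did. That of KODR against WTDR was -1.10 (SE 0.80), which passed with neither. Gstm1 was 417 FPKM in WTAL, 191 in WTDR, 222 in KOAL and 220 in KODR, so that WTAL stood above the rest. Its differences of -0.91 (SE 0.52) for KOAL and -1.13 (SE 0.88) for WTDR against WTAL were not called with either SE. Gsta3 was 77.8 FPKM in WTAL, 141 in WTDR, 59.9 in KOAL and 108 in KODR. Both restricted groups lay above their ad libitum group, with log2 differences of 0.86 (SE 0.56) in the wild type and 0.84 (SE 0.54) in the knockout, the second of which passed with the smaller SE, where 7.39% of entries did, though not at an unadjusted p under 0.05, which 4.03% of entries had. For KODR against WTDR and KODR against KOAL no member was called, where 0.283% and 0.707% of entries were.

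Cell type markers also moved in WAT. All 6 adipocyte markers, such as Adipoq and Plin1, were lower in KOAL than in WTAL, and their sum was 23486 FPKM in WTAL, 26850 in WTDR, 15738 in KOAL and 19727 in KODR. The sum of 7 epithelial markers was 17.4 FPKM in WTAL, 25.9 in WTDR, 127 in KOAL and 104 in KODR, and 6 of the 7 were higher in KOAL than in WTAL, with Krt5 at 0 in both wild-type groups. The 3 macrophage markers summed to 563 FPKM in WTAL, 201 in WTDR, 280 in KOAL and 221 in KODR. Red blood cell genes summed to 6863 FPKM in WTAL, 12269 in WTDR, 4297 in KOAL and 21030 in KODR. The part of these cells in the values of Gsta4, Gstk1 and Gstm1 was not tested.

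**Figure D4:**
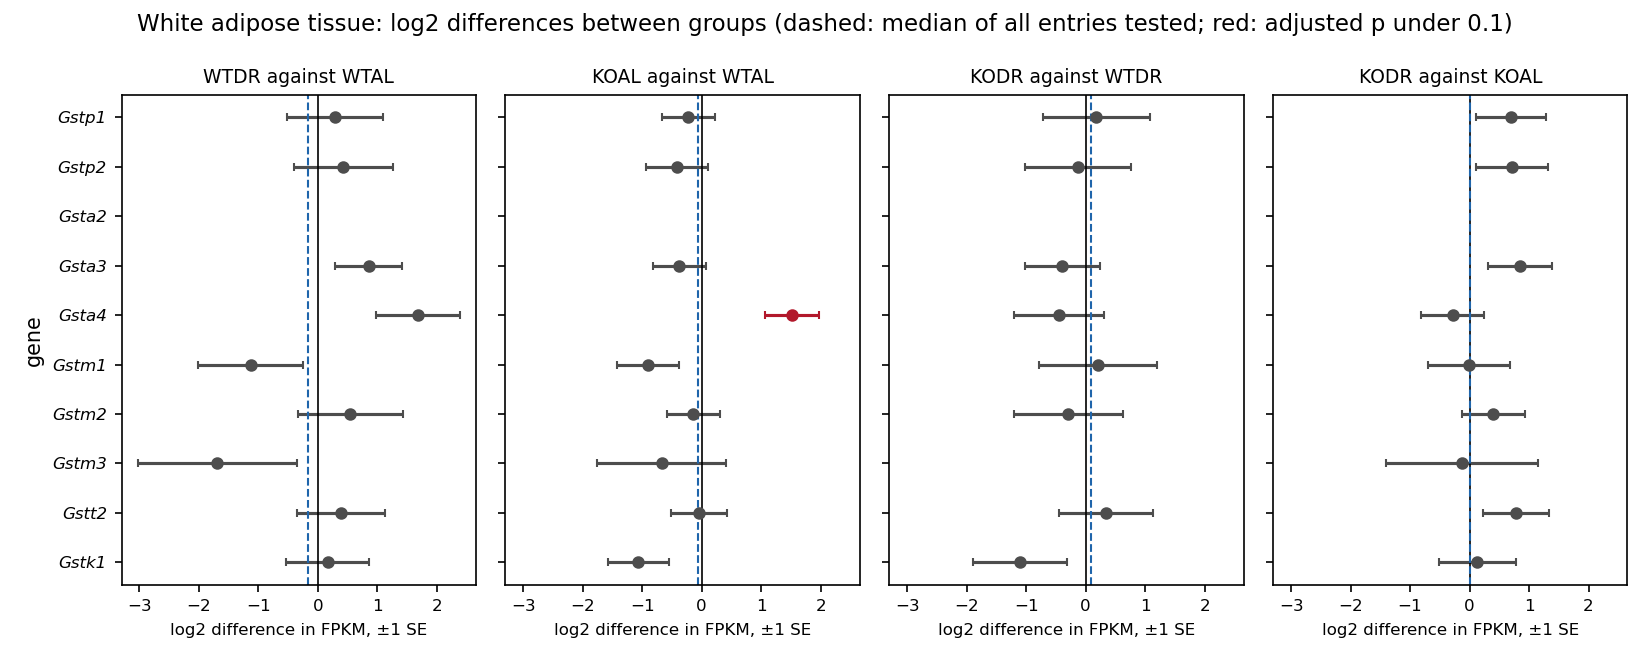
Log2 differences in WAT FPKM (horizontal axes) for the 9 genes tested in at least one of 4 comparisons; points are differences, bars 1 SE either side, the dashed line the median of all entries tested and red the one called difference. Gsta4 stands at 1.52 for KOAL against WTAL, where the other 8 points lie below 0.

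In skeletal muscle no member was called in 32 tests, by the Wald test with either SE, and none had an unadjusted p under 0.05. Per comparison, 2.69% to 10.7% of all entries passed with the smaller SE, and 2.01% to 5.81% had an unadjusted p under 0.05. With 8 members tested per comparison, few or none would pass at those shares. The shares of all entries called were 0.681% for KOAL against WTAL, 1.40% for WTDR against WTAL, 2.23% for KODR against WTDR and 0.5% for KODR against KOAL, and 0.371% for the interaction. Gstm1 was 83.2 FPKM in WTAL and 135 to 139 FPKM in the other 3 groups, with log2 differences of 0.72 (SE 0.48) for WTDR and 0.70 (SE 0.54) for KOAL against WTAL. Gstp1 was highest in WTAL, at 173 FPKM, and lowest in KOAL, at 117. The largest difference in value was that of Gsta3, 2.72 FPKM in WTAL and 7.01 in WTDR (log2 1.36, SE 1.10). In WTDR muscle Gsta3 was 1.30% of its liver FPKM, where the median hepatocyte marker was 1.77%. Adipocyte markers, which muscle also held, summed to 592 FPKM in WTDR muscle and 1777 in WTAL muscle. The part of liver or fat RNA in this difference was not tested. Gstt2 was 4.68 FPKM in KOAL and 9.61 in KODR, a log2 difference of 1.04 (SE 0.66). Glrx5, a mitochondrial glutaredoxin that works with glutathione in iron-sulphur cluster assembly, was the one gene of the 6 lists called in any tissue. It rose from 37.9 FPKM in WTAL muscle to 112 in KOAL, a log2 difference of 1.56 (SE 0.43), and was 67.9 in WTDR and 141 in KODR. Its adjusted p by the Wald test was 0.0473. Red blood cell RNA moved with the genotype in muscle too, all 5 markers being higher in KOAL than in WTAL and in KODR than in WTDR. Their sum was 950 FPKM in WTAL, 1553 in WTDR, 11582 in KOAL and 20283 in KODR, the same order as that of Glrx5. The part of blood in the Glrx5 values was not tested.

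In brain, 7 of the 10 genes were tested and none was called in 28 tests. The shares of all entries called were 0.203% for KOAL against WTAL, 0.224% for WTDR against WTAL, 1.16% for KODR against WTDR, 0.365% for KODR against KOAL and 0.396% for the interaction. Gstm1, which astrocytes are known to express, was 84.4 FPKM in WTAL, 66.8 in WTDR, 175 in KOAL and 75.5 in KODR, so that KOAL stood above the other 3 groups. KODR was below KOAL by a log2 difference of -1.21 (SE 0.50), which passed with the smaller SE, where 4.33% of entries did, and at an unadjusted p under 0.05, as did 2.51%. KOAL was above WTAL by 1.05 (SE 0.66), which passed with neither SE. The brain KOAL group also had the most red blood cell RNA, with a sum of 9907 FPKM over 5 globin and erythroid genes against 1032 in WTAL, 971 in WTDR and 3475 in KODR. The sum of 7 neuron and glia markers was 5973 FPKM in KOAL and 5685 in KODR. The part of blood in the Gstm1 values was not tested. Gsta4, Gstp1 and Gstp2 varied by at most 1.70-fold between the highest and lowest brain group.

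Whether a contrast differed between tissues was tested for the 4 contrasts in 6 pairs of tissues, tests added after the values had been seen. None of 215 was called, where between 0.0137% and 0.437% of entries were. At an unadjusted p under 0.05 the count was 7 of 215, or 3.26%, against 0.397% to 2.81% of entries per comparison. With the smaller SE the count was again 7, against 0.151% to 5.31% of entries, and 5 of these had an unadjusted p under 0.05. For the wild-type diet contrast, Gstp1 was higher by 1.69 (SE 0.75) in liver than in muscle, which passed with the smaller SE though it was not called. In the knockout, the diet difference of Gstm1 was higher by 1.5 in liver than in brain, and it passed likewise. The other 5 that passed were genotype differences under ad libitum feeding set against WAT. Gsta4 was lower in brain than in WAT, a difference of -1.79 (SE 0.78), and Gstm1 higher by 1.96 (SE 0.84) in brain and by 1.61 (SE 0.75) in muscle. Gstp2 was higher by 1.52 (SE 0.76) in liver than in WAT, and Gstk1 by 1.51 in muscle. A diet difference particular to liver was thus not called for any single gene, and none was shown with the smaller SE either. Gstp1 passed against muscle but not against brain or WAT, and Gstm1 passed against brain alone. Between KOAL and KODR, Gstm1 went from 175 to 75.5 FPKM in brain and from 956 to 1163 FPKM in liver.

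The entries whose pattern was most like that of each gene were sought over the groups, by Pearson's r of log2(FPKM + 1) with the mean of each tissue removed. Entries share their libraries, so these correlations carry no test. For Gstp1 the closest of 9385 entries were Gm13375 (r = 0.91), Pex3 (0.91) and Pbdc1 (0.90), and for Gstp2 Strap (0.91), Gm13375 (0.90) and Gm14111 (0.90). Gstp1 and Gstp2 themselves had r = 0.88, which the reads they share can raise. Gsta4 was closest to Gm3851 (0.91), Nnt (0.88) and Rps12-ps6 (0.85), Gstm1 to Xpa (0.89), Gm11694 (0.85) and Gm12244 (0.84), Gstt2 to Ppp1r14b (0.92), Rps19-ps5 (0.90) and Pfdn6 (0.90), and Gstk1 to Sec13 (0.82), the joined entry of Ticam2 and Tmed7 (0.82) and Dusp22 (0.77). Over 12 groups without brain, Gsta3 was closest to Hint3 (0.93), Lcmt1 (0.92) and Osbpl9 (0.91), and Gstm2 to Gm13736 (0.98), Mrpl55 (0.95) and Msto1 (0.95). Gsta2 and Gstm3 could be ranked over the 4 liver groups alone, where 1129 and 721 entries had r above 0.9. The first entries there were 2210408F21Rik, Glt8d1 and Gm10074 for Gsta2, and Rpp21, Prkra and Gm6153 for Gstm3, each with r of 1.00. Among the members, Gstm2 and Gstp2 had r = 0.85 and Gstm1 and Gsta4 -0.09.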

How the data were processed

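The authors trimmed the Ion Proton reads of poly A RNA with cutadapt 1.5, aligned them iteratively to GRCm38, dropping reads under 54 bases, and ran Cuffdiff 2.2.1, which gave 1 FPKM per gene and group over 2 or 3 libraries. The deposited table holds these FPKM values, their 95% intervals and a status. Neither counts nor library values were used here, so depth is unknown and the 95% intervals are the measure of precision. The table's read assignment between near-identical genes is the authors' own.

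Computation used Python 3.11.15, numpy 2.4.6, pandas 2.3.3, scipy 1.17.1 and matplotlib 3.10.9. The SD was taken as the distance from the FPKM to its upper bound over 2, and the SE of a log2 ratio came from the delta method. An entry was tested by a two-sided Wald test when its status was OK, its FPKM was above 0 in every group compared and it reached 1 in at least one, with Benjamini-Hochberg adjustment over all such entries of a comparison. The test was checked on simulated data. It held its rate with errors on the log scale, but it called unchanged entries when errors were symmetric on the linear scale and the SD followed the drawn value. The deposited intervals are symmetric on the linear scale, so counts of calls may be too high. The paper's own counts come from Cuffdiff's test and are not the counts of this test. The interaction was the genotype difference under restriction less that under ad libitum feeding. Alternatives were a t distribution, a false discovery rate of 5%, non-overlapping intervals, centring on the median entry, leaving out the 873 joined entries, the smaller SE, pseudocounts (0.1 or 1) and other FPKM filters (none, or 5 and above). Named genes were the 10 members, the list genes called in any comparison or else each list's largest rise and fall in liver, and 3 entries most like each member. The members and lists were chosen with earlier results of these data known. Transcripts and positions are from the GRCm38 annotation held here and promoters from RefSeq. The extremes of the xenobiotic receptor list for KODR against KOAL in liver are not reported here.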

Additional observations from a re-analysis of the deposited data

How the results depend on the processing

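Of 1334 recomputed log2 differences of members in the diet and genotype comparisons, 1319 kept their direction and their side of the threshold. Centring on the median entry turned 3 small ones: Gstm1 for KODR against WTDR became -0.0149 in skeletal muscle and -0.0514 in brain, and Gstt2 for KOAL against WTAL in WAT became 0.0150. Only centring and the pseudocounts alter a log2 difference, and a pseudocount cannot turn its sign. The other alternatives change the error, the threshold or the entries tested, so under them a kept direction was fixed in advance. After centring, all 10 members were above 0 for WTDR against WTAL in liver, with a median of 1.07 and a lowest value of 0.26. The single WAT call, Gsta4, was lost (0 calls) at a false discovery rate of 5%, with a t distribution and with no filter on low FPKM. With the smaller SE, calls went to 5 of 40 tests in liver, 1 of 28 in brain and 4 of 35 in WAT. For the interaction they went to 1 of 34, and in skeletal muscle they stayed at 0 of 32. Among all entries 1.54% to 4.8% passed per comparison in liver, 1.41% to 18.5% in brain and 1.13% to 7.39% in WAT. The shares were 2.69% to 10.7% in skeletal muscle and 0.803% to 5.15% for the interaction. The calls between tissues went from 135 to 41 with a t distribution. Cuffdiff's intervals may already describe the mean of a group or a single library, and the choice between the SE values was not tested. No paired analysis was possible because the table holds group values, and for the same reason no library could be left out in turn. Each WTAL value rests on 2 libraries, and a single one that stands apart would not be seen.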

Other observations

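The transferases outside the 10 members had tissue patterns of their own. Mgst1 was 3081 to 3598 FPKM in liver, 596 to 1142 in WAT, 97.9 to 132 in skeletal muscle and 8.80 to 10.7 in brain. Gstt3 had a value only within an entry that joins it to Ddt and Gm20441, at 954 to 1468 FPKM in liver, so its own level is not known from the table. The largest positive differences of another transferase within a WAT contrast included those of Gstm7 for KOAL against WTAL, at 1.64 on the log2 scale (SE 0.80), and of Mgst2 for KODR against KOAL, at 1.94 (SE 0.94). Neither was called, and both passed with the smaller SE. In WTDR muscle, the liver receptor gene Hnf4a was 3.28 FPKM and the efflux gene Abcc2 3.84 FPKM, against 0.0332 and 0.0213 FPKM in WTAL, beside the hepatocyte markers described for that group. Neither difference was called.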
